A study of Mus musculus with 29 samples.

Results

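Collagen genes were examined for peaks of transcription factors (TFs) expressed in NIH-3T3 cells, an established mouse fibroblast line. They were chosen by name as the protein-coding genes whose symbol is Col, a number, a and a number, which gave 44 of 21938 protein-coding mouse genes on 15 chromosomes. Each gene was given a window of its gene body and 20 kb either side. The 44 windows cover 6937 kb in 37 separate stretches, or 0.255% of the genome, because some neighbouring genes such as Col4a1 and Col4a2 share part of their windows. The TFs carried 3 HA tags and were expressed from stably integrated lentiviral transgenes, induced overnight with 500 ng/ml doxycycline, so every cell line used here overexpressed its factor and the lists do not map endogenous proteins. Chromatin fixed with 1% formaldehyde was precipitated with an antibody to HA and sequenced (ChIP-seq), and each library has a list of peaks, the stretches of the genome where sequenced fragments piled up.

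The 28 lists belong to 24 constructs. The 21 wild-type factors were BHLHB8-HA, BRACHYURY-HA, CDX2-HA, DLX1-HA, DLX6-HA, DUXBL-HA, EBF1-HA, FOXA1-HA, HLF-HA, MAX-HA, NANOG-HA, OCT4-HA, PRR3-HA, RHOX11-HA, SIX6-HA, SOX15-HA, SOX2-HA, TEAD1-HA, THAP4-HA, TOX3-HA and ZFP319-HA. The remaining constructs were the FOXA1 mutants FOXA1_RR-HA and FOXA1_SW-HA, made to weaken nonspecific contacts with DNA, and a line with both OCT4-HA and a SOX2 that carries YPET, a yellow fluorescent protein (SOX2-YPET OCT4-HA). The antibody to HA was thus directed at OCT4 in that line, and not at SOX2. Duplicate lists exist for OCT4-HA, SOX2-HA, FOXA1-HA and BHLHB8-HA, while 20 constructs have only 1 list. The lists hold 52 to 61991 peaks and no read numbers, so the depth behind them is unknown, and a list with few peaks can have few in any gene set. The study describes the duplicates as biological replicates.

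Collagens are the main structural proteins of connective tissue, built from 3 polypeptide chains wound into a triple helix. Fibrillar collagens such as types I and III assemble into the banded fibrils that give tissue its tensile strength, and fibroblasts are their chief source. Others form the sheet of basement membranes (type IV), beaded filaments around cells (type VI), links on the surface of fibrils (FACIT collagens such as types IX and XVI), anchoring fibrils of skin (type VII) or proteins that span the cell membrane (such as type XVII). The 44 genes comprised 11 fibrillar genes, 9 of network-forming types IV, VIII and X, 6 of type VI, 9 FACIT genes, 4 transmembrane genes, 2 multiplexins (types XV and XVIII), the gene of type VII, and Col26a1 and Col28a1. A peak near a gene shows where the tagged protein was recovered, not that the gene was transcribed or regulated, and no expression values were used.

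Every collagen window held at least 1 peak. Of the 28 lists, 21 had peaks in collagen windows and 7 had none, and 1277 of all 304922 peaks (0.419%) lay there. A median of 8.5 constructs had a peak in a collagen window, from 2 at Col10a1 to 15 at Col3a1 and Col17a1, against a median of 5 constructs over all protein-coding genes. Peaks of any construct were found in 44 of 44 collagen windows, where 88.5% of all genes had one. Peaks of 10 or more constructs were found in 16 of 44, where 16.4% of all genes had them.

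Long windows collect more peaks, and collagen genes are long. The median collagen window was 154.4 kb, against 57.42 kb over all genes. Among windows of 40 to 80 kb, the 13 collagen genes had a median of 8 constructs and the 15828 genes of that length a median of 4. Among windows of 80 to 160 kb the medians were 9 for 11 collagen genes and 7 for 4141 genes. Among windows of 160 kb or more, the order turned round, with 8.5 constructs for 20 collagen genes and 9 for 1969 genes. The higher number of constructs per collagen gene was therefore seen in short and middle-sized windows and not in the longest ones. Per length, the medians were 14.55 peaks per 100 kb for collagen genes and 10.3 for all genes, counting the 24 constructs together with duplicates averaged.

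The constructs with the most peaks reached the most collagen genes. BHLHB8-HA, a basic helix-loop-helix factor of secretory cells also known as MIST1, had a peak at all 44 collagen genes, where 80.9% of all genes had one. DUXBL-HA, a double homeodomain factor, had peaks at 35 collagen genes (44.6% of all genes). SOX2-HA, an HMG-box factor of stem cells, had them at 34 (42% of all genes), and the homeodomain factors DLX6-HA and DLX1-HA at 33 (38.1%) and 32 (46.5%). ZFP319-HA, a zinc finger protein, reached 32 (42.8%). TEAD1-HA, the DNA-binding partner of YAP and TAZ, reached 31 (55.5%), and CDX2-HA, a homeodomain factor of the gut, 29 (40.7%). EBF1-HA, a B-cell and mesenchymal factor, reached 24 collagen genes (26.5% of all genes), SIX6-HA 18 (17.5%), the forkhead factor FOXA1-HA 16 (17.5%), MAX-HA, the partner of MYC, 12 (14.5%), RHOX11-HA 12 (23.7%) and SOX15-HA 10 (13.7%). Each of these shares of the 44 genes was above the share of all genes, a comparison that does not correct for window length.

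**Figure D1:**
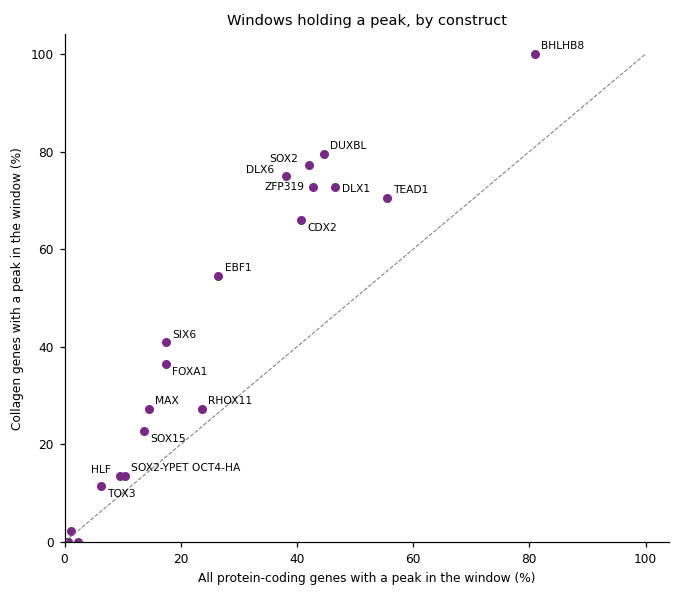
Share of the 44 collagen windows (vertical axis, %) and of the windows of all 21938 protein-coding genes (horizontal axis, %) with at least 1 peak, with 1 point for each of the 24 constructs and equal shares on the dashed line. BHLHB8 lies at 100% and 80.9%, and the constructs named in the plot lie above the line.

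Few collagen genes held peaks of the remaining constructs. HLF-HA had peaks at 6 (9.48% of all genes), SOX2-YPET OCT4-HA at 6 (10.4%), TOX3-HA at 5 (6.33%) and NANOG-HA at 1, Col2a1 (1.12%). No collagen gene had a peak of BRACHYURY-HA (2.3% of all genes), FOXA1_RR-HA (0.583%), FOXA1_SW-HA (0.565%), OCT4-HA (0.488%), PRR3-HA (0.287%) or THAP4-HA (0.269%). These lists are short. With 3 peaks taken as the limit that a count of 0 allows, for counting error only, for BRACHYURY-HA 0 of 720 peaks allows a share of up to 0.417% in collagen windows, and for the FOXA1 mutants 0 of 151 and 0 of 147 peaks allow up to 1.99% and 2.04%. All 3 limits lie above the 0.332% of FOXA1-HA replicate 1, so a lower share in the mutants was not detectable. The exact 2-sided permutation test of 2 wild-type against 2 mutant lists cannot go below p = 0.333, and it was not run.

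As a share of each list, collagen windows took 0.175% to 0.665% of the peaks in constructs with 1 list of at least 2000 peaks. EBF1-HA had the highest share, 51 of 7669 peaks (0.665%, 95% Clopper-Pearson interval 0.496 to 0.873). SOX2-YPET OCT4-HA had the lowest, 9 of 5146 (0.175%, 0.08 to 0.332). Between them lay DUXBL-HA with 88 of 24318 (0.362%, 0.29 to 0.446) and SIX6-HA with 28 of 6075 (0.461%, 0.306 to 0.665). The interval of EBF1-HA lay above those of DUXBL-HA and SOX2-YPET OCT4-HA and overlapped that of SIX6-HA. TOX3-HA, with fewer than 2000 peaks, had a share above that of EBF1-HA, 9 of 1286 (0.7%), with a wide interval of 0.32 to 1.32. The intervals cover counting error over peaks only, and peaks cluster, so they are too narrow as a measure of error between libraries. Duplicates differed as well. BHLHB8-HA had 231 of 46842 (0.493%) and 272 of 61991 (0.439%), SOX2-HA 111 of 25049 (0.443%) and 17 of 5692 (0.299%), and FOXA1-HA 20 of 6033 (0.332%) and 1 of 1099 (0.091%).

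Set against the windows of all genes, collagen windows had slightly more peaks per kb, and how many differences exceeded the spread between duplicates depended on 1 list. Over the 16 constructs with at least 2000 peaks, the median density was 1.24-fold that of all genes, with 12 constructs above and 4 below. EBF1-HA was 1.82-fold denser (0.7352 against 0.4073 peaks per 100 kb) and SIX6-HA 1.49-fold (0.4036 against 0.275). These were the only 2 of the 16 that exceeded 1 SD of the log2 ratio between duplicates, 0.577, pooled over BHLHB8-HA, FOXA1-HA and SOX2-HA. SIX6-HA only just did, with 0.579, and with nothing added to the counts only EBF1-HA exceeded that SD. A list in that SD, FOXA1-HA replicate 2, has 1 collagen peak. Without FOXA1-HA, an alternative chosen after seeing the data, the SD is 0.271, and 9 constructs lie above 0 and 1, SOX2-YPET OCT4-HA, below 0 by more than it, MAX-HA only just. With the gene body alone and no flank, the median fell to 0.979-fold. It was 1.05-fold with a flank of 5 kb and 1.28-fold with 50 kb, so the difference depended on the flank. On autosomes only it was 1.14-fold. A list of 22 genes that process collagen chains, among them the lysyl oxidases Lox and Loxl1 to Loxl4 and the prolyl hydroxylases P4ha1 to P4ha3, had 18.16 peaks per 100 kb summed over the 24 constructs, against 13.71 in collagen windows and 11.15 over all genes.

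**Figure D2:**
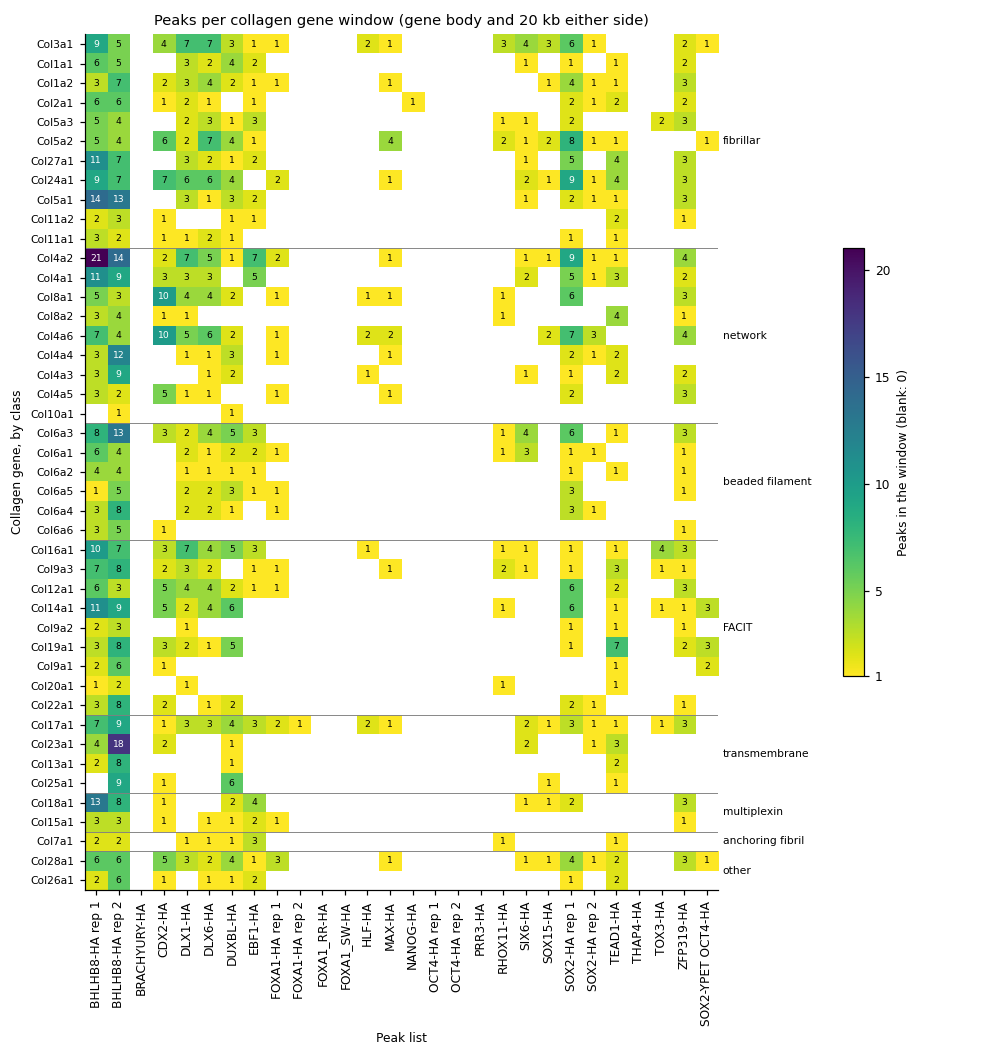
Number of peaks in the window of each of the 44 collagen genes (rows, by class and then by density) in each of the 28 lists (columns), with the count printed in the cell and blank cells for 0. The BHLHB8-HA columns are filled nearly throughout, with up to 21 peaks at Col4a2, and 7 columns are blank.

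Fibrillar collagen genes held more peaks per kb than the other collagen genes. The 11 fibrillar windows make up 21.2% of the collagen length (1470 of 6937 kb) and held 19.65 peaks per 100 kb over the 24 constructs. The network-forming class held 14.1, type VI 14.3, the FACIT class 13.48, type VII 14.03, the multiplexins 11.02, Col26a1 with Col28a1 10.93 and the transmembrane class 6.988 peaks per 100 kb. By gene, the median fibrillar window held 23.67 peaks per 100 kb, from 3.91 at Col11a1 to 62.68 at Col3a1. The median over the 33 other genes was 10.73, from 2.656 at Col25a1 to 45.93 at Col16a1, so the classes overlapped widely. In windows of 40 to 80 kb the medians were 33.88 for 5 fibrillar and 14.75 for 8 other genes. In windows of 160 kb or more they were 16.02 for 5 fibrillar and 7.933 for 15 other genes.

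The difference was seen in most constructs, but these are not independent of each other. Most collagen sites of some, such as DLX1-HA, DLX6-HA and EBF1-HA, were shared with other constructs. Most of those of others, such as TEAD1-HA and CDX2-HA, were not. Over the 16 with at least 2000 peaks, the fibrillar density was a median of 1.7-fold that of the other collagen genes, computed with 0.5 peaks added to each count. In 14 of the 16 the log2 ratio was above 0 by more than the SD between duplicates, 0.289. With nothing added to the counts it was so in 13, with a median of 1.67-fold. Without FOXA1-HA, an alternative chosen after seeing the data, the SD is 0.323. Then 13 constructs exceed it, and HLF-HA, with 0.309, does not. Neither SD covers the counting error of lists with few collagen peaks, such as those of HLF-HA, MAX-HA and SOX15-HA. Exceeding the SD is therefore no test of their difference. Each of the 16 ratios was lower with nothing added. SOX15-HA had the widest ratio, 3.22-fold, from 6 fibrillar and 7 other peaks, followed by MAX-HA with 2.93-fold from 7 and 9 peaks. DLX6-HA had 34 fibrillar and 54 other peaks (2.312 and 0.9878 per 100 kb, 2.35-fold). SIX6-HA had 10 and 18 (2.11-fold), DLX1-HA 31 and 56 (2.07-fold), RHOX11-HA 5 and 10 (1.95-fold), ZFP319-HA 22 and 45 (1.84-fold) and TEAD1-HA 17 and 41 (1.57-fold). At the low end were EBF1-HA (14 and 37, 1.44-fold), DUXBL-HA (24 and 64, 1.41-fold), CDX2-HA (22 and 64, 1.3-fold) and HLF-HA (2 and 7, 1.24-fold, or 1.06-fold with nothing added).

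Against the 21.2% of the collagen length that is fibrillar, 38.6% of the collagen peaks of DLX6-HA (95% Clopper-Pearson interval 28.4 to 49.6) were at fibrillar genes. The values were 35.6% for DLX1-HA (25.6 to 46.6) and 32.8% for ZFP319-HA (21.8 to 45.4), whose intervals lay above the length share. Those of CDX2-HA (25.6%, 16.8 to 36.1) and EBF1-HA (27.5%, 15.9 to 41.7) included it, as did that of SOX15-HA (46.2%, 19.2 to 74.9) with its 13 peaks. This was so although the log2 ratio of each of these constructs exceeded the SD between duplicates. The constructs with the widest folds thus had few peaks, and their values are the least certain.

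Duplicates of SOX2-HA gave nearly the same share, 35.1% (39 of 111 peaks) and 35.3% (6 of 17), in spite of their different numbers of peaks. Those of BHLHB8-HA gave 31.2% (72 of 231) and 22.4% (61 of 272), and the densities were 4.896 against 2.909 peaks per 100 kb in replicate 1 and 4.148 against 3.86 in replicate 2. For the construct with the most peaks, the size of the fibrillar difference therefore varied with the library.

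FOXA1-HA and SOX2-YPET OCT4-HA were the exceptions. FOXA1-HA replicate 1 had 4 fibrillar and 16 other peaks (0.272 and 0.2927 per 100 kb), and replicate 2 had 1 collagen peak in all, outside the fibrillar windows. The co-expression line had 1 fibrillar and 8 other peaks (0.06801 and 0.1463 per 100 kb), a share of 11.1% with an interval of 0.281 to 48.2 that includes the length share. In that line the HA tag is on OCT4, so the antibody was directed at another protein than in the SOX2-HA lines. Its 1 fibrillar peak lay at a site shared with BHLHB8-HA alone. Of all peaks of that list, 32.2% overlapped BHLHB8-HA replicate 2, against 5.17% for BHLHB8-HA replicate 1 and 2.29% for SOX2-HA replicate 1. How far the list reflects OCT4 was not tested. SOX2-HA, in lines without OCT4-HA, had a higher density at fibrillar genes in both lists. OCT4-HA without SOX2-YPET had no collagen peak to compare.

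**Figure D3:**
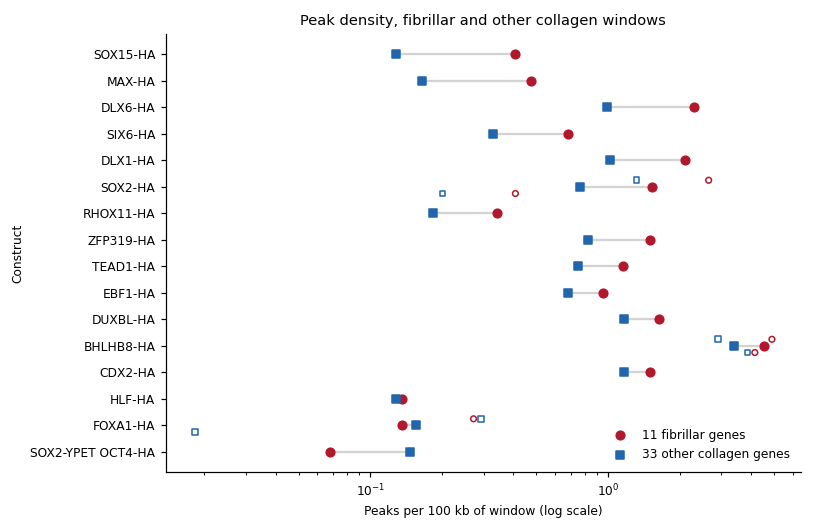
Peaks per 100 kb (horizontal axis, log scale) in fibrillar windows (red circles) and other collagen windows (blue squares) for the 16 constructs with at least 2000 peaks, ordered by their ratio, with open symbols for each duplicate list (a value of 0 is not drawn). The red circle lies to the right in 14 constructs, and to the left in FOXA1-HA and SOX2-YPET OCT4-HA.

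Col3a1 (ENSMUSG00000026043.18, chr1:45311538-45349706, plus strand) encodes the chain of type III collagen, which forms thin fibrils in skin, vessels and repairing tissue. It had the highest density of the 44 genes, 62.68 peaks per 100 kb, higher than or equal to that of 99.33% of all genes. Its window held 9 and 5 peaks of BHLHB8-HA, 7 each of DLX1-HA and DLX6-HA, 6 and 1 of SOX2-HA, 4 each of CDX2-HA and SIX6-HA, 3 each of DUXBL-HA, RHOX11-HA and SOX15-HA, 2 each of HLF-HA and ZFP319-HA, and 1 each of EBF1-HA, MAX-HA, FOXA1-HA replicate 1 and SOX2-YPET OCT4-HA. Of the constructs with at least 10000 peaks, only TEAD1-HA had none there. No other protein-coding gene starts in the window, and 12 of the 15 constructs remained with the gene body alone.

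Peaks of different constructs fell close together. When touching peaks of all lists were merged into sites, 4 sites around Col3a1 held peaks of 7 or more constructs. Merging joins peaks in a chain, so the peaks of a site need not all overlap each other. In the site 2170 bp upstream, for example, the HLF-HA peak ended before the SIX6-HA peak began. The richest, chr1:45308920-45309815, lies 2170 bp upstream of the start and held peaks of 9 constructs (BHLHB8-HA, DLX1-HA, DLX6-HA, DUXBL-HA, EBF1-HA, HLF-HA, SIX6-HA, SOX15-HA and SOX2-HA). The site at the start itself, chr1:45311185-45311844, held 8 (BHLHB8-HA, CDX2-HA, DLX1-HA, DLX6-HA, FOXA1-HA, MAX-HA, RHOX11-HA and SOX2-HA). Sites 11335 bp upstream (chr1:45299701-45300705) and 16297 bp from the start on the far side of the gene, by the nearest annotated start (chr1:45355757-45356753), held 7 constructs each. The following sequences are from the GRCm38 assembly, plus strand, and show 200 bases of the first site, centred on the median midpoint of its peaks, and the 200 bases before the start of Col3a1. They are printed so that the letters at these sites can be read. The stretches are not covered in full by each construct's peak. The RHOX11-HA peak, for example, lies almost wholly beyond the promoter stretch. Capitals mark TGACTCA or TGAGTCA, the sequence of AP-1 (the FOS and JUN factors of fibroblasts, which were not among the constructs), and the searched sequences of the constructs with a peak at the site, on either strand.

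Col3a1 upstream, chr1:45309240-45309439: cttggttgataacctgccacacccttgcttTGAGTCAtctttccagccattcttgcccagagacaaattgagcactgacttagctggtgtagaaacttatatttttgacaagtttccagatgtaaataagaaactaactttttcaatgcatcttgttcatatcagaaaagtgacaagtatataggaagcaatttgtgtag
Col3a1 promoter, chr1:45311338-45311537: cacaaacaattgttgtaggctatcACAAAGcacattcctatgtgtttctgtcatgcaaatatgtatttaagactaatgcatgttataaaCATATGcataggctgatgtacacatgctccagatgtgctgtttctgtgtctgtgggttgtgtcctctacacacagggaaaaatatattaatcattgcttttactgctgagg

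The upstream stretch held 1 AP-1 sequence and none of the sequences searched for its own constructs. The promoter stretch held 1 CATATG, searched for BHLHB8-HA, and 1 ACAAAG, searched for SOX2-HA, and no AP-1 sequence. Of the promoters of the RefSeq table (250 bases before each of 32851 starts), 16.1% held a BHLHB8 sequence (CAGCTG or CATATG), 25.2% a SOX sequence (ACAATG or ACAAAG) and 4.46% an AP-1 sequence, so the first 2 matches are common ones.

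Col1a1 and Col1a2 encode the chains of type I collagen, the most abundant protein of bone, skin and tendon, which assemble in a fixed ratio although the genes lie on different chromosomes. Col1a1 (ENSMUSG00000001506.10, chr11:94936224-94953042, plus strand) had 36.96 peaks per 100 kb from 9 constructs, and Col1a2 (ENSMUSG00000029661.16, chr6:4504814-4541544, plus strand) 33.88 from 12. At Col1a1 there were 6 and 5 peaks of BHLHB8-HA, 4 of DUXBL-HA, 3 of DLX1-HA, 2 each of DLX6-HA, EBF1-HA and ZFP319-HA, and 1 each of SIX6-HA, TEAD1-HA and SOX2-HA replicate 1. At Col1a2 there were 3 and 7 of BHLHB8-HA, 4 and 1 of SOX2-HA, 4 of DLX6-HA, 3 each of DLX1-HA and ZFP319-HA, 2 each of CDX2-HA and DUXBL-HA, and 1 each of EBF1-HA, MAX-HA, SOX15-HA, TEAD1-HA and FOXA1-HA replicate 1. CDX2-HA, FOXA1-HA, MAX-HA and SOX15-HA were thus found at Col1a2 and not at Col1a1, and SIX6-HA at Col1a1 and not at Col1a2.

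Most of the Col1a1 peaks lay outside the gene. Within the gene body alone 2 constructs remained of 9, and no construct had a promoter peak, with a midpoint within 1 kb of a start. The site with the most constructs, 7, was chr11:94957638-94958367, 21779 bp from the nearest Col1a1 start and beyond its end. The nearest start of any protein-coding gene to this site is that of Hils1, 9590 bp away. At Col1a2, 8 constructs remained in the gene body, BHLHB8-HA had the only promoter peak, and the site with the most constructs, 6, was chr6:4488222-4488914, 16246 bp upstream. These sites are shown as the richest ones at both genes of type I collagen (GRCm38, plus strand, centred and in capitals as above).

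Col1a1 downstream, chr11:94957983-94958182: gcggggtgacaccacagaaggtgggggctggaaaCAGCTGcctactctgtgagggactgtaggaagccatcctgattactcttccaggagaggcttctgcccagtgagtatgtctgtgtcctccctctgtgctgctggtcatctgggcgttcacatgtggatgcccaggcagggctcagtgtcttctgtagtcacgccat
Col1a2 upstream, chr6:4488394-4488593: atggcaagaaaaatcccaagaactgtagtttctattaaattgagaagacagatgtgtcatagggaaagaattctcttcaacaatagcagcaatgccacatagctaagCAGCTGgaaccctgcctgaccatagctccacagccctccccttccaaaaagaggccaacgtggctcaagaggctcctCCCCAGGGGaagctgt

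Both stretches held 1 CAGCTG, the E-box searched for BHLHB8-HA, which had peaks of both duplicates at both sites, and neither held an AP-1 sequence. The Col1a2 stretch also held CCCNNGGG, searched for EBF1-HA, as 2 overlapping matches.

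**Figure D4:**
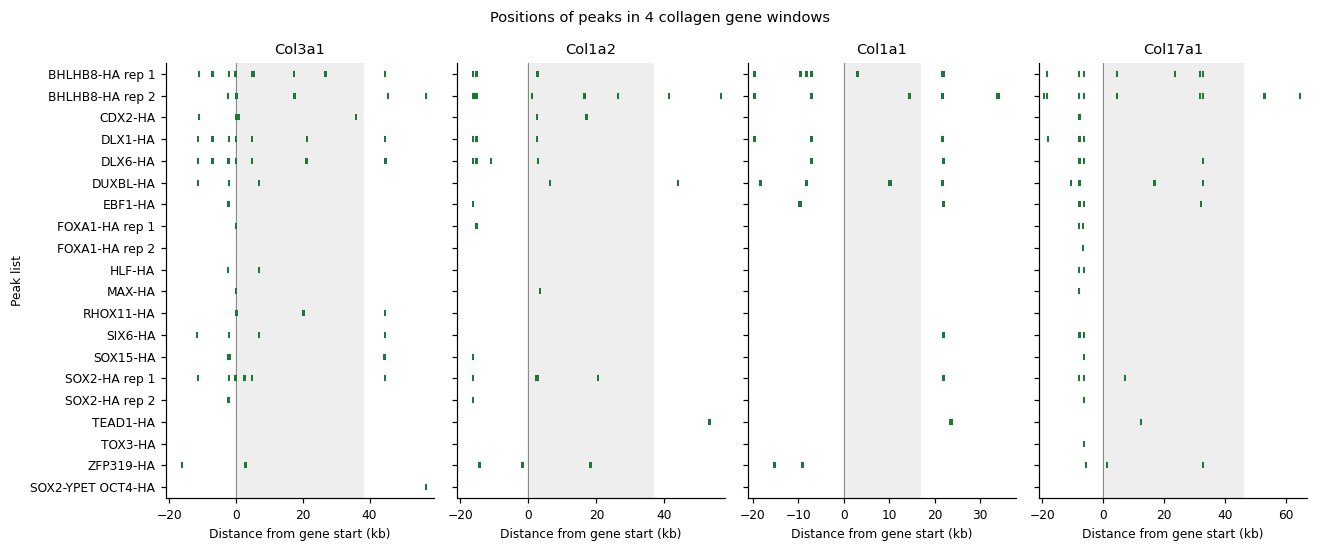
Positions of peaks (green marks, drawn at one fixed width) of each list at Col3a1, Col1a2, Col1a1 and Col17a1, as distance from the gene start in kb along the gene's strand, with the gene body in grey. Columns of marks show places where peaks of several lists lie close together, such as those just before the start of Col3a1 and 6 to 8 kb before the start of Col17a1.

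Among the remaining fibrillar genes, Col5a2 and Col24a1 drew the most constructs. Col5a2, a type V chain that sets the width of type I fibrils, lies next to Col3a1 on the opposite strand (chr1:45374321-45503282) and had peaks of 13 constructs, 23.67 per 100 kb. SOX2-HA had 8 and 1 peaks there, DLX6-HA 7, CDX2-HA 6, BHLHB8-HA 5 and 4, and MAX-HA 4, of 16 collagen peaks of MAX-HA in all. Its window and that of Col3a1 share the site at chr1:45355757-45356753. Col24a1 (chr3:145292472-145552011) had 12 constructs in a long window of 299.5 kb, 16.02 per 100 kb. BHLHB8-HA had 9 and 7 peaks there, SOX2-HA 9 and 1, CDX2-HA 7, and DLX1-HA and DLX6-HA 6 each. An intronic site of it, chr3:145420241-145421000, held 8 constructs.

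Col5a3, another type V chain, had 10 constructs and 25.29 peaks per 100 kb, and Col2a1, the chief collagen of cartilage, 9 constructs and 25.33. NANOG-HA had its 1 collagen peak in a site of 6 constructs 9620 bp upstream of Col2a1. Col5a1 had 9 constructs (15.02 per 100 kb) with 14 and 13 peaks of BHLHB8-HA, and Col27a1 9 (17.08) with 11 and 7. The type XI genes were lowest, with 6 constructs at Col11a2 (12.64 per 100 kb) and 7 at Col11a1 (3.91). Col11a1 was the only fibrillar gene under the all-gene median of 10.3 peaks per 100 kb.

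**Figure D5:**
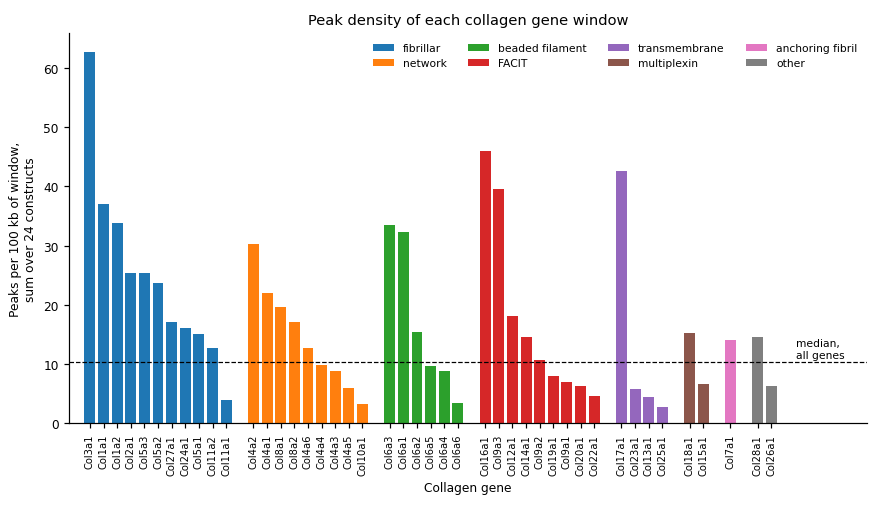
Peaks per 100 kb of window for each collagen gene, summed over the 24 constructs with duplicates averaged and grouped by class, with the median of all genes dashed at 10.3. Of the 11 fibrillar bars, only that of Col11a1 ends below the line, and Col16a1, Col17a1 and Col9a3 stand out among the rest.

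Outside the fibrillar class, Col17a1 (ENSMUSG00000025064.15, chr19:47646344-47692094, minus strand) equalled Col3a1 in the number of constructs, 15. It encodes a membrane-spanning collagen of the hemidesmosomes that hold epidermal cells to the basement membrane. Its density was 42.57 peaks per 100 kb, while the other transmembrane genes, Col23a1, Col13a1 and Col25a1, had 5.838, 4.423 and 2.656. BHLHB8-HA had 7 and 9 peaks, DUXBL-HA 4, DLX1-HA, DLX6-HA, EBF1-HA and ZFP319-HA 3 each, SOX2-HA 3 and 1, FOXA1-HA 2 and 1, HLF-HA and SIX6-HA 2 each, and CDX2-HA, MAX-HA, SOX15-HA, TEAD1-HA and TOX3-HA 1 each. It was the only collagen gene with a peak in both FOXA1-HA lists.

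The high number rested on a pair of sites upstream of Col17a1. The first, chr19:47699637-47700239, 7844 bp before the start, held 11 constructs, the most of any collagen site. The second, chr19:47698005-47698805, 6311 bp before the start, held 10, among them both lists of BHLHB8-HA, FOXA1-HA and SOX2-HA. No protein-coding gene starts closer to either than Col17a1, and no other one starts in the window. Without these sites Col17a1 had 8 constructs, and with a flank of 5 kb it had 7. They were also the only collagen sites with peaks of 10 or more constructs. They are shown as the most shared ones, in GRCm38 plus strand, opposite to the gene.

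Col17a1 first site, chr19:47699840-47700039: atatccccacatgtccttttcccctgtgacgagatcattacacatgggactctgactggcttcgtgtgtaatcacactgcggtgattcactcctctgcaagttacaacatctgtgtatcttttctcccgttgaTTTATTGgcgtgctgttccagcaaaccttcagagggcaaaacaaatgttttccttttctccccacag
Col17a1 second site, chr19:47698390-47698589: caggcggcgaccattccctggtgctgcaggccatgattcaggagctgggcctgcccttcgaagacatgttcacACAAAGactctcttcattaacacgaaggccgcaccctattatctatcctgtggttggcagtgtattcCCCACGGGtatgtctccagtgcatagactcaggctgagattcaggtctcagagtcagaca

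Capitals mark the same searches as above. The first stretch held 1 TTTATTG, searched for CDX2-HA, which had a peak there. The second held 1 ACAAAG and 1 CCCNNGGG, searched for SOX2-HA or SOX15-HA and for EBF1-HA. Neither held an AP-1 sequence, and of the 11 and 10 constructs most had no searched sequence in the stretch.

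Next in number of constructs came Col28a1, a collagen of peripheral nerve that resembles type VI, with 14 (14.48 per 100 kb in 234.8 kb), and its intronic site chr6:8171777-8172572 held 8. Col9a3 and Col16a1, both FACIT genes, had 13 constructs each in short windows of 64.4 and 91.44 kb, giving 39.6 and 45.93 peaks per 100 kb. At Col16a1 there were 10 and 7 peaks of BHLHB8-HA, 7 of DLX1-HA and 5 of DUXBL-HA, and TOX3-HA had 4 of its 9 collagen peaks there. Both windows also hold starts of other protein-coding genes, as do 21 of the 44 collagen windows in all. The pair of Col9a3 sites 16762 and 15131 bp upstream lay 276 and 53 bp from a start of Mrgbp, and the Col16a1 site with 7 constructs lay 1715 bp from a start of Pef1.

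Col4a2 and Col4a1, which encode the common type IV chains of basement membranes, start at the same place on opposite strands. Col4a2 had 13 constructs and 30.31 peaks per 100 kb, with 21 and 14 peaks of BHLHB8-HA and 9 and 1 of SOX2-HA. The 21 peaks were the most of any list at any collagen gene. Col4a1 had 9 constructs and 22.02 peaks per 100 kb. The X-linked pair Col4a6 and Col4a5, which also start near each other on opposite strands, had 11 constructs (12.62) and 8 (5.909). CDX2-HA had 10 peaks at Col4a6, as it did at Col8a1, the most of its list at any collagen gene. An intronic site of Col4a6, chrX:141363123-141363776, 110626 bp from the nearest start, held 9 constructs, and 200 bases around the median midpoint of its peaks held 1 AP-1 sequence and 1 CAGCTG. The pair Col4a3 and Col4a4 had 8 constructs each (8.85 and 9.808 per 100 kb).

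Of the type VI genes, Col6a3 and Col6a1 stood highest, with 33.46 and 32.24 peaks per 100 kb from 11 and 10 constructs. An intronic site of Col6a3, chr1:90834630-90835469, 8878 bp into the gene, held 8 constructs. It is printed because it held 2 AP-1 sequences in the 200 bases shown, centred as before, the first of which runs into a CATATG.

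Col6a3 intron, chr1:90834940-90835139: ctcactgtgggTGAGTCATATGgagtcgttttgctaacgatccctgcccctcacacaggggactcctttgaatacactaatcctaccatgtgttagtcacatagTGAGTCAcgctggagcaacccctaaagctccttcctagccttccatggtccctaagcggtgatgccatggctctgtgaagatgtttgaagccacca

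Lowest among the 44 were Col10a1, a marker of hypertrophic cartilage, with 1 peak each in BHLHB8-HA replicate 2 and DUXBL-HA, and Col6a6 and Col13a1 with 3 constructs each. Per length, Col25a1 (2.656), Col10a1 (3.184) and Col6a6 (3.327 peaks per 100 kb) were lowest. In the long window of Col25a1, 508.4 kb, BHLHB8-HA replicate 2 had 9 peaks and replicate 1 had none, and DUXBL-HA had 6.

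Peaks at the starts of collagen genes were about as frequent as over all genes. A promoter peak of any construct was found at 27 of 44 collagen genes (61.4%), where 60.2% of all genes had one, and promoter peaks of 3 or more constructs at 9 (20.5%), where 23.2% of all genes had them. Col3a1 led with 8 constructs, followed by Col5a2 and Col16a1 with 5 each and Col6a3 with 4. Col5a1, Col4a1, Col4a2, Col8a1 and Col4a5 had 3 each. Col4a1 and Col4a2 shared a site of BHLHB8-HA, EBF1-HA and TEAD1-HA at their common start, and TEAD1-HA had another peak 422 bp from a further start of Col4a1.

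Collagen peaks lay mainly in introns. The 693 merged sites in collagen windows made 719 pairs of a site and a gene, because some windows overlap. Of these, 62.7% were in introns, 16.3% upstream, 12.9% downstream, 5.7% at promoters and 2.36% in exons. Over all genes the shares were 39.6% in introns, 22.3% upstream, 23.8% downstream, 11.2% at promoters and 3.06% in exons. Collagen windows were also longer, with medians of 154.4 kb against 57.42 kb, and the role of length in these shares was not tested. Fibrillar genes had 56.2% in introns and the others 65%.

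Most collagen sites belonged to 1 construct. Of the 693 sites, 526 (75.9%) held peaks of 1 construct, 120 (17.3%) of 2 to 4, 45 (6.49%) of 5 to 9 and 2 (0.289%) of 10 or more. In the windows of all genes, 74.9% held 1 construct and 5.49% held 5 or more, close to the 6.78% (47 sites) of collagen windows. Fibrillar windows had 17 of 182 sites with 5 or more constructs (9.34%) and the other collagen windows 30 of 511 (5.87%).

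Constructs differed in how often they were at shared sites and how often alone. BHLHB8-HA was at 45 of the 47 sites with 5 or more constructs, DLX6-HA at 43, DLX1-HA at 40 and SOX2-HA at 37. EBF1-HA was at 23, DUXBL-HA at 17, SIX6-HA at 16 and CDX2-HA at 15. TEAD1-HA, by contrast, was at 1 of the 47 and ZFP319-HA at 3, although they had 58 and 68 collagen sites. TEAD1-HA was alone at 72.4% of its collagen sites, CDX2-HA at 75.6%, ZFP319-HA at 70.6%, DUXBL-HA at 66.7% and BHLHB8-HA at 63.4%. DLX1-HA was alone at 5.81%, DLX6-HA at 9.2% and EBF1-HA at 14%. Of all sites with 5 or more constructs in the genome, TEAD1-HA was at 6.88%, ZFP319-HA at 14.4%, CDX2-HA at 27.9% and EBF1-HA at 34.4%. DUXBL-HA was at 34.5% of them, SIX6-HA at 39.2%, DLX1-HA at 80.7%, SOX2-HA at 87.7%, DLX6-HA at 90.1% and BHLHB8-HA at 94%. Of the 47 collagen sites, CDX2-HA was at 31.9%, SIX6-HA at 34%, DUXBL-HA at 36.2% and EBF1-HA at 48.9%. The shares of sites held alone are for collagen sites only, with no genome value beside them, so they are not traits of collagen genes.

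The overlap of pairs of lists was measured at collagen genes and over the genome. Of the collagen peaks of BHLHB8-HA replicate 1, 50.6% overlapped replicate 2 by 1 bp or more, and 41.9% the other way, against 53.3% and 39.2% of all their peaks. Of the 17 collagen peaks of SOX2-HA replicate 2, 14 (82.4%) lay on replicate 1 (92.8% of all its peaks), and 12.6% of those of replicate 1 lay on replicate 2 (21%). The paralogs DLX1-HA and DLX6-HA shared 59.8% and 60.2% of their collagen peaks (50.7% and 48.4% of all peaks). At collagen genes these shares were above those of the BHLHB8-HA duplicates. Over all peaks the 53.3% of BHLHB8-HA replicate 1 was higher than both DLX shares. Of the 13 peaks of SOX15-HA, 11 (84.6%) lay on SOX2-HA replicate 1 (89.2% of all its peaks), which is 9.01% of the collagen peaks of the latter. On BHLHB8-HA replicate 1 lay 75% of the collagen peaks of SIX6-HA (69.1% of all) and 78.4% of those of EBF1-HA (70.3%), which is 9.09% and 16.9% of the collagen peaks of BHLHB8-HA.

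CDX2-HA and DUXBL-HA, with 86 and 88 collagen peaks, had 5 in common, 5.81% and 5.68%, against 4.27% and 4.42% of all their peaks. The 9 collagen peaks of SOX2-YPET OCT4-HA lay at Col9a1, Col19a1, Col14a1, Col3a1, Col5a2 and Col28a1, and none of them overlapped SOX2-HA replicate 1 (2.29% of all its peaks did). Of the 9, 4 overlapped BHLHB8-HA replicate 2 (32.2% of all its peaks) and 0 overlapped BHLHB8-HA replicate 1 (5.17%). OCT4-HA without SOX2-YPET had no collagen peak in either list, of 95 and 52 peaks, which by the same limit of 3 peaks allows up to 3.16% and 5.77%, so no difference was detectable there.

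Sequence matches at collagen peaks were set beside those over all peaks of the list. In the central 200 bp, on both strands, CAGCTG or CATATG was found in 48.9% and 44.1% of the collagen peaks of the BHLHB8-HA lists (47.3% and 41.8% of all their peaks). TTTATGG or TTTATTG was found in 47.7% of the collagen peaks of CDX2-HA (44.9%), CTAATCA in 22.7% of those of DUXBL-HA (20.4%), CCCNNGGG in 39.2% of those of EBF1-HA (39%) and ACAATG or ACAAAG in 60.4% of those of SOX2-HA replicate 1 (53.5%). TAATTA was found in 6.82% of the collagen peaks of DLX6-HA (10.2%) and 8.05% of those of DLX1-HA (8.3%), and TGATAC in 2 of 28 of SIX6-HA (7.14%, against 13%). The shorter SOX lists had fewer at collagen genes, 9 of 17 collagen peaks of SOX2-HA replicate 2 (52.9%, against 72.8% of all its peaks) and 6 of 13 of SOX15-HA (46.2%, against 60%). TGTTTAC or TATTTAC was found in 9 of 20 collagen peaks of FOXA1-HA replicate 1 (45%, against 37.2%), and CATTCC in 2 of 58 of TEAD1-HA (3.45%, against 4.51%). Over all merged sites CATTCC was in 11.7%, more than in the peaks of TEAD1-HA. CACGTG, the E-box of MAX, was in none of the 16 collagen peaks of MAX-HA and in 2.92% of all its peaks. Over all merged sites it was in 2.91%. ATGCAAAT or ATGCTAAT, searched for OCT4, was in none of the 9 collagen peaks of SOX2-YPET OCT4-HA. It was in 1.38% of all peaks of that list and in 1.59% of all merged sites. Apart from CATTCC, the sequences named before these were less frequent over all merged sites than in all peaks of their lists.

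The AP-1 sequence was more frequent at sites of several constructs. Over all merged sites it was found in 7.1% of those with 1 construct, 16.7% of those with 2 to 4 and 24.5% of those with 5 or more. At collagen sites it was found in 44 of 526 (8.37%), 31 of 120 (25.8%) and 10 of 47 (21.3%), and in 12.3% of all 693 against 9.81% of all sites in the genome. Among the lists with at least 50 collagen peaks it was most frequent at those of DLX6-HA, 38.6% (26.7% of all its peaks), SOX2-HA replicate 1, 35.1% (28.8%), and DLX1-HA, 33.3% (27.2%). In shorter lists it was in 7 of 20 collagen peaks of FOXA1-HA replicate 1 (35%, against 26.1%) and 3 of 9 of HLF-HA (33.3%, against 23.8%). It was in 4 of 67 collagen peaks of ZFP319-HA (5.97%, against 5.16% of all its peaks) and in 3 of 58 of TEAD1-HA (5.17%, against 1.42%). These shares are descriptions of sequence, and binding of AP-1 was not measured.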

How the data were processed

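ChIP-seq peak lists of 28 libraries were analysed. The authors aligned paired-end reads to mm10 with STAR 2.5.3a, kept unique alignments, removed duplicates with Picard and called peaks per sample with MACS2 2.1.1.20160309, dropping those found also in input or on the ENCODE blacklist. The deposited tables hold the position of each peak (chromosome, start, end) and no height, score or count of reads, so depth is unknown. Input chromatin was not analysed here.

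Genes, starts and exons came from GENCODE vM21 and sequence from GRCm38, the same build. Peaks sharing at least 1 bp with a window were counted, duplicates were averaged per construct, and touching peaks of all lists were merged into sites. Ratios of densities had 0.5 peaks added to each count. No significance test was made. Values are set beside those of all 21938 protein-coding genes, 95% Clopper-Pearson intervals and the spread between duplicates. Sequences were searched in the central 200 bp, on both strands. Genes described individually were the fibrillar ones, the 8 with most constructs, the 5 densest and those with promoter peaks of 3 or more constructs, with ties kept, and sites by number of constructs. Other genes and sites were named after their values were seen. The genes and lists were chosen with earlier results of these data known. Counting was tested on simulated data. Python 3.11.15, NumPy 2.4.6, SciPy 1.17.1, pysam and Matplotlib 3.10.9 were used.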

Additional observations from a re-analysis of the deposited data

Results flagged for a closer look

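The following went the other way from the median over the 16 constructs with at least 2000 peaks, and the difference was not tested. SOX2-YPET OCT4-HA had a log2 ratio of fibrillar to other collagen density of -0.608, from 9 peaks, while 15 constructs were above 0 in each of their lists with 0.5 peaks added, although without that addition FOXA1-HA also had a lower fibrillar density. Its log2 ratio of collagen to all-gene density was -0.498. For the same ratio RHOX11-HA had -0.0864 and SOX15-HA -0.203, while 11 constructs were above 0 in each of their lists. The SD between duplicates is 0.577 with FOXA1-HA, which has a list of 1 collagen peak, and 0.271 without it, and SOX2-YPET OCT4-HA lies outside the second.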

How the results depend on the processing

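All 44 collagen genes kept a peak under the 14 alternatives run. The median log2 ratio of collagen to all-gene density, 0.306, became -0.0307 with the gene body alone. It was 0.066 with a flank of 5 kb, 0.36 with a flank of 50 kb and 0.192 on autosomes only. Without each duplicate list it lay between 0.22 and 0.341. The fibrillar to other collagen ratio, 0.763, was 1.11 with peaks of at least 300 bp. Only 12 constructs then had at least 2000 peaks, so that median is over a smaller set of constructs. Under the other 20 the ratio stayed between 0.637 and 0.878. It was 0.743 with nothing added to the counts (an alternative chosen after seeing the data) and 0.763 to 0.878 without each duplicate list. With peaks of at least 300 bp there were 381 merged sites instead of 693, and there were 549 to 693 without each duplicate list. Collagen genes with peaks of 10 or more constructs, 16, numbered 9 with the gene body alone, 28 with a flank of 50 kb and 6 with peaks of at least 300 bp, alternatives chosen after seeing the data, and 14 to 16 without each duplicate list. The cause was not tested. The number of collagen genes with a promoter peak, 27, was 27 to 34 under 3 alternatives. At Col1a1, 2 of 9 constructs remained with the gene body alone and 5 with a flank of 5 kb, and at Col17a1 7 of 15 with either. No paired analysis was possible because the results come from no test and replicate numbers are shared only by lists of different constructs. Without FOXA1-HA, whose second list has 1 collagen peak, the SD between duplicates fell from 0.577 to 0.271 for collagen against all genes, and the constructs above 0 by more than it rose from 2 to 9. With nothing added to the counts, that number rose from 1 to 8. For fibrillar against other collagen genes the SD rose from 0.289 to 0.323, and the number fell from 14 to 13. Depth is unknown, so constructs with few peaks could not be compared, and 20 constructs have 1 list.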
